A study of Mus musculus with 3 samples.

Results

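MicroRNAs (miRNAs) of the mouse retina were compared between postnatal day 7 (P7) and postnatal day 17 (P17), the ages before and after mouse pups open their eyes. The study sequenced small RNA of mouse retinas (strain C57BL/6 in the labels, C57BL/6J in its methods) during postnatal development. For each age the retinas of 5 eyes were pooled and made into 1 small RNA library, so the comparison has 1 library at P7 and 1 at P17. The mice carried no transgene, deletion or treatment that the labels name. A miRNA entered the comparison if its mean level over both libraries reached 1 RPM (reads per 1000000 miRNA reads of the library), which kept 608 of the 1915 listed mature miRNAs. With 1 library per age no difference has a replicate check and no p-value can be given. A miRNA was called up-regulated or down-regulated, or is said to have risen or fallen, when log2(RPM + 1) differed by more than a 2-fold change between the ages, and the 95% intervals printed below (exact binomial for the ratio of reads, Wilson for a level) cover counting error alone.

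A miRNA is cut as 1 of the 2 arms of a short hairpin RNA, the 5p arm or the 3p arm, and pairs with messenger RNAs mainly through its seed, the bases near its 5′ end, so miRNAs with the same seed share many targets. In the retina the sensory cluster, which encodes miR-96, miR-182 and miR-183, is made mainly in photoreceptors, miR-124 and miR-9 in neurons and their progenitors, and miR-204 and miR-211 are relatives with the same seed. The sensory cluster and miR-204 with miR-211 are known to fall in the dark and to recover in light in the adult mouse retina, while the miR-17-92 cluster and its relatives are known from dividing progenitor cells.

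The mature sequences of some of the miRNAs that moved most are shown first, grouped by seed where it is shared. They were taken from RefSeq (GRCm38.p6, the assembly also called mm10), which held 511 of the 608 miRNAs, and capitals mark the seed, bases 2 to 8. The first set holds the seed AAAGUGC, carried by miR-17, miR-20a and their paralogs, with miR-18a-5p, whose seed differs from it, below them.
miR-17-5p: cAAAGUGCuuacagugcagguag
miR-20a-5p: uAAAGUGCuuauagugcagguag
miR-93-5p: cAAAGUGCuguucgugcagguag
miR-106b-5p: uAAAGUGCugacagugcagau
miR-18a-5p: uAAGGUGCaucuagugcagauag
The same clusters also encode miRNAs of other seeds, shown for comparison with miR-17-5p and miR-20a-5p, which changed more.
miR-19a-3p: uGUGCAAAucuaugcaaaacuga
miR-19b-3p: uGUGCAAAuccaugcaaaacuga
miR-92a-3p: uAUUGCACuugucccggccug
miR-25-3p: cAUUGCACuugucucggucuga
The second set holds the seed AGCACCA of the miR-29 family, the one with the largest median rise among seeds held by 3 or more miRNAs.
miR-29a-3p: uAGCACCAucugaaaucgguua
miR-29b-3p: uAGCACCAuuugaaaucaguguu
miR-29c-3p: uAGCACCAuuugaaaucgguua
The third pair, miR-204-5p and miR-211-5p, is shown because its members share the seed UCCCUUU and changed by different amounts.
miR-204-5p: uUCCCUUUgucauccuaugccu
miR-211-5p: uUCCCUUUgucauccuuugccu
The last set holds other miRNAs with large changes or high levels.
miR-129-5p: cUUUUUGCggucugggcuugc
miR-490-3p: cAACCUGGaggacuccaugcug
miR-132-3p: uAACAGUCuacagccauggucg
miR-224-5p: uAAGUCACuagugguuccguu
miR-182-5p: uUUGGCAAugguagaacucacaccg
miR-183-5p: uAUGGCACugguagaauucacu
miR-96-5p: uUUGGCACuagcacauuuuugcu

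Counted from 1 at the 5′ end, miR-204-5p and miR-211-5p differed by A17U alone, miR-29a-3p and miR-29c-3p by C10U alone, and miR-29a-3p and miR-29b-3p by C10U, G18A, U21G and A22U over the 22 bases compared. MiR-17-5p and miR-20a-5p differed by C1U and C12U, and miR-19a-3p and miR-19b-3p by U11C. Reads of such near-identical miRNAs can be split between names in ways that depend on the counting rule, which is not given in the sources used here, so the values of single members of these families are less certain than the sums over them.

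The libraries held 12759995 miRNA reads at P7 and 11659722 at P17, so 1 read stood for 0.0784 RPM at P7 and 0.0858 RPM at P17, and a count of 0 allowed up to 0.235 and 0.257 RPM (3 reads). All 608 miRNAs past the filter had reads in both libraries and together they took all but 0.0130% of the reads at P7 and 0.0126% at P17. The label was checked against 8 miRNAs known from the retina (miR-183-5p, miR-96-5p, miR-182-5p, miR-124-3p, miR-9-5p, miR-181a-5p, miR-204-5p and miR-211-5p), which were all read in both libraries and summed to 508250 RPM at P7 and 497396 RPM at P17. In pooled tissue, fewer cells of a type and less RNA per cell cannot be told apart.

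Between P7 and P17, 93 of the 608 miRNAs were up-regulated (15.3%) and 71 were down-regulated (11.7%), which left 444 within 2-fold, so 27.0% were called in all. The median log2 change was 0.01, the middle 50% of the miRNAs lay between −0.62 and 0.58, and the 5th and 95th percentiles were −1.52 and 1.71. Past 4-fold lay 17 miRNAs that rose and 14 that fell. After median-of-ratios scaling, which sets the median ratio of the miRNAs past the filter to 1 and moved the log2 values by −0.0068, 92 miRNAs were up-regulated (15.1%) and 72 were down-regulated (11.8%), and 163 calls were the same under both scalings. The split was not the same under every scaling. When the 10 most abundant miRNAs were left out of the total, the median log2 change was −0.16 and the split was 82 up-regulated and 96 down-regulated, so a single small change reads as higher or lower only relative to that shift.

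**Figure D1:**
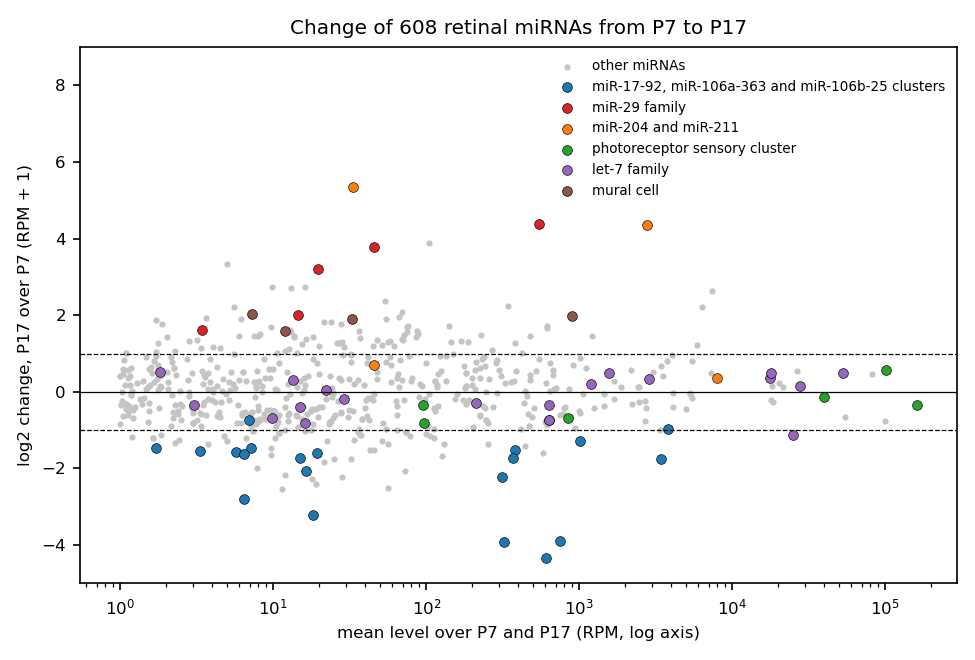
Each point is 1 of the 608 miRNAs, with its mean level over P7 and P17 (RPM, log axis) on the x axis and its log2 change from P7 to P17 on the y axis, and dashed lines at a 2-fold change. Members of the miR-17-92 clusters (blue) lie below 0, down to −4.34, the miR-29 family (red) lies at 1.61 or above, and miR-211-3p (orange) is the highest point at 5.35.

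The levels of the libraries stayed ordered alike (Pearson r of log2(RPM + 1) across miRNAs 0.952 and Spearman rho 0.929, a description, since miRNAs of 1 pair of libraries are not replicates). Among the 219 miRNAs from 1 to 10 RPM, 25 rose and 23 fell. In the 202 from 10 to 100 RPM, 48 rose and 31 fell, in the 125 from 100 to 1000 RPM 15 rose and 13 fell, and in the 62 above 1000 RPM 5 rose and 4 fell. The median size of the change was 0.54, 0.79, 0.63 and 0.42 in these 4 bins, and the median half-width of the counting interval shrank from 0.74 to 0.24, 0.076 and 0.019. The change was taken on log2(RPM + 1), which shrinks it at low levels, while the interval is that of the read ratio. They are thus on unlike scales below 10 RPM, while above 1000 RPM the counting error was far smaller than the typical change.

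The retina's miRNA reads were held by few miRNAs at both ages: 50% of the reads came from 5 miRNAs at P7 and 6 at P17, and 90% from 35 and 36. The 10 most abundant miRNAs took 69.2% of the reads at P7 and 65.8% at P17. Between the ages, 17.7% of the reads moved from miRNAs that lost share to miRNAs that gained it. MiR-182-5p, of the photoreceptor sensory cluster, was the most abundant miRNA at both ages, with 181186 RPM at P7 and 141917 RPM at P17, a log2 change of −0.35. MiR-183-5p of the same cluster went from 81732 to 121650 RPM (log2 change 0.57), the largest gain of any miRNA in RPM (39918 RPM), and miR-96-5p from 41477 to 37574 RPM (−0.14). All 3 stayed within 2-fold. Their other arms miR-182-3p, miR-183-3p and miR-96-3p had log2 changes of −0.68, −0.35 and −0.82. The 6 miRNAs of this cluster held 30.6% of all reads at P7 and 30.2% at P17, none of them was called in RPM (1 fell with the 10 most abundant left out of the total), and their median log2 change was −0.35 against 0.01 over all miRNAs.

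**Figure D2:**
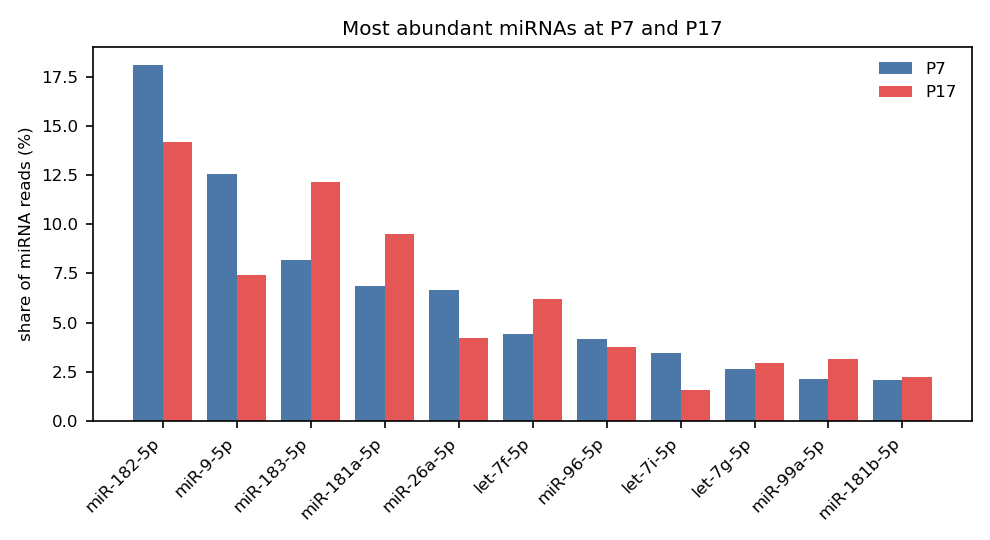
Bars give the share of miRNA reads (%) at P7 (blue) and P17 (red) of the 11 miRNAs that were among the 10 most abundant of either library. MiR-182-5p is the tallest at both ages, miR-9-5p loses share, and miR-183-5p and miR-181a-5p gain it.

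MiR-9-5p, a miRNA of neural progenitors and neurons, went from 125762 RPM at P7 to 74011 RPM at P17 (log2 change −0.76), and miR-26a-5p from 66696 to 42402 RPM (−0.65). MiR-181a-5p, an abundant miRNA of inner retinal neurons, went from 68813 to 95134 RPM (0.47), and miR-99a-5p from 21442 to 31477 RPM (0.55). These 4 stayed within 2-fold. The let-7 family, known to accumulate as cells differentiate, had 20 members past the filter, with a median of −0.07. Of these, 0 rose and 1 fell, both below the 15.3% and 11.7% of all miRNAs that did so. The 20 include both arms, and let-7a-1-3p and let-7c-2-3p are listed with the same reads. The member that fell was let-7i-5p, from 34355 to 15611 RPM (log2 change −1.14, interval of the read ratio −1.15 to −1.13). Its seed relative let-7f-5p went the other way, from 44285 to 61765 RPM (0.48), as did let-7c-5p (0.49), let-7b-5p (0.49) and let-7a-5p (0.35), all within 2-fold. Let-7g-5p had a log2 change of 0.14, which turned to −0.05 with the 10 most abundant miRNAs left out of the total.

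The largest rise was that of miR-211, whose hairpin lies in an intron of Trpm1, the gene of a cation channel of ON bipolar cells and melanocytes (mm10 chr7:64205806-64205911, plus strand). MiR-211-5p had 3300 reads (259 RPM) at P7 and 61966 reads (5315 RPM) at P17, a log2 change of 4.36 (read ratio 4.31 to 4.41). MiR-211-3p had 8 reads (0.63 RPM) at P7 and 762 reads (65.4 RPM) at P17. Its log2 change was 5.35 with the pseudocount and the read ratio 6.70 without it (5.72 to 7.92), a wide interval that came from the 8 reads. MiR-204-5p, which shares its seed and lies in an intron of Trpm3, a relative of Trpm1, had 6967 RPM at P7 and 9019 RPM at P17 (0.37), and miR-204-3p had a log2 change of 0.69. Of the 4 miRNAs of this pair, 2 rose, against 15.3% of all miRNAs, and 0 fell. The sum of the pair went from 7261 to 14456 RPM. By their own levels, miR-211-5p stood below miR-204-5p at P17 and far below it at P7.

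All 5 miR-29 family members past the filter rose, against 15.3% of all miRNAs, with a median log2 change of 3.20. The family is known to accumulate as the brain matures and to repress collagen genes. MiR-29a-3p had 633 reads (49.6 RPM) at P7 and 12184 reads (1045 RPM) at P17, a log2 change of 4.37 (read ratio 4.28 to 4.51). MiR-29b-3p had 68 and 997 reads (3.77) and miR-29c-3p 39 and 423 reads (3.20). The opposite arms miR-29c-5p (67 and 279 reads) and miR-29b-2-5p (15 and 66 reads) had smaller log2 changes, of 2.00 and 1.61. The seed sum over the 3p members was 58.0 RPM at P7 and 1167 RPM at P17. The 3 mature sequences come from 4 hairpins: those of miR-29a and 1 copy of miR-29b on chromosome 6, and the other copy of miR-29b with miR-29c on chromosome 1, where both lie in an exon of the noncoding gene A330023F24Rik.

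Among neuronal miRNAs, miR-124-3p, the most studied miRNA of differentiated neurons, had 26219 reads (2055 RPM) at P7 and 148978 reads (12777 RPM) at P17, a log2 change of 2.64 (read ratio 2.62 to 2.66). MiR-129-5p had 28778 reads (2255 RPM) and 121703 reads (10438 RPM), a log2 change of 2.21. These were the highest levels at P17 among all miRNAs that rose. Of the 18 miRNAs fixed as a neuronal maturation list, 8 rose, against 15.3% of all miRNAs, and 0 fell (median 0.80). The 8 came from 4 names: miR-129-5p, miR-129-2-3p (2.09) and miR-129-1-3p (1.44), both arms of miR-132, miR-212-5p (1.59) and miR-212-3p (1.36), and miR-383-5p (1.57). MiR-132 and miR-212, which are induced by neuronal activity through CREB, are encoded side by side and share the seed AACAGUC in their 3p arms. MiR-132-5p had 541 and 1519 reads (1.60), miR-132-3p 582 and 1529, and miR-212-3p 17 and 58. MiR-138-5p, known from dendritic spines, ended just short of 2-fold (1276 and 2333 reads, 0.99). MiR-128-3p (−0.03), miR-218-5p (−0.03) and miR-153-3p (−0.06) hardly differed, and the sign of the first 2 turned under trimmed-mean (TMM) scaling.

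Other miRNAs among the 12 largest rises came from single loci. MiR-375-3p, best known from pancreatic islets, had 158 reads (12.4 RPM) at P7 and 2292 (197 RPM) at P17, a log2 change of 3.88 (read ratio 3.76 to 4.23). Both arms of miR-490, from an intron of the muscarinic receptor gene Chrm2, rose alike, with 44 and 333 reads for miR-490-5p (2.73) and 35 and 272 for miR-490-3p (2.70). MiR-499-5p, from an intron of the myosin gene Myh7b, had 215 and 1065 reads (2.37). MiR-184-3p, abundant in lens and cornea, had 1519 reads (119 RPM) and 6633 reads (569 RPM), a log2 change of 2.25.

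**Figure D3:**
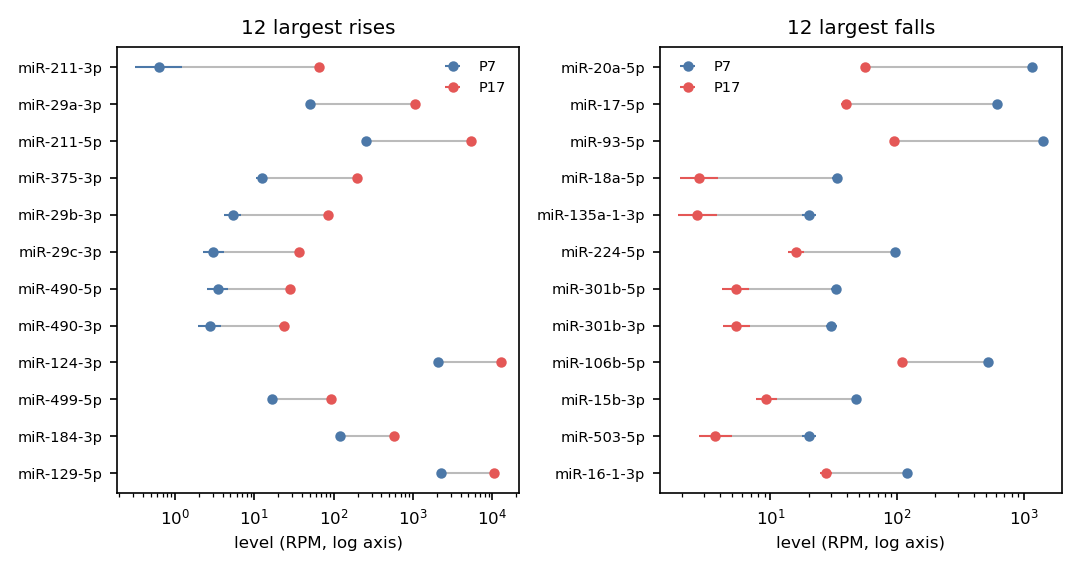
Points give the level (RPM, log axis) at P7 (blue) and P17 (red) of the 12 miRNAs with the largest rises (left) and falls (right) among those with a mean of at least 10 RPM, and the bars are 95% Wilson intervals that cover counting error alone. MiR-211-3p has the widest interval, from its 8 reads at P7, and miR-124-3p and miR-129-5p reach the highest P17 levels on the left.

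The largest falls came from the miR-17-92 cluster and its paralogs on chromosomes 5 and X, which promote cell cycle progression. Of their 20 members past the filter, 18 fell and 0 rose, against 11.7% of all miRNAs that fell, with a median log2 change of −1.68. Their summed level was 16708 RPM at P7 and 5391 RPM at P17. MiR-20a-5p had 14734 reads (1155 RPM) at P7 and 653 reads (56.0 RPM) at P17, a log2 change of −4.34 (read ratio −4.48 to −4.25). MiR-17-5p had 7741 and 460 reads (−3.91) and miR-93-5p 17940 and 1094 reads (−3.89). MiR-106b-5p had 6565 and 1264 reads (−2.24) and miR-106a-5p 152 and 10 reads (−2.80). The seed AAAGUGC they share was held by 6 miRNAs past the filter, all of which fell (median −3.34), and its summed level went from 3699 to 300 RPM. MiR-18a-5p, the subject of the study's later experiments on vessels, had 428 reads (33.5 RPM) and 32 reads (2.74 RPM), a log2 change of −3.21 (read ratio −4.18 to −3.09).

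MiR-20b-5p, the remaining member with that seed, had 69 and 14 reads (−1.54). Of the more abundant members with other seeds, miR-92a-3p had 67301 reads (5274 RPM) and 18105 reads (1553 RPM), a log2 change of −1.76. MiR-19a-3p (7203 and 1973 reads, −1.73) and miR-19b-3p (18293 and 6815 reads, −1.29) stayed closer to their P7 level than miR-17-5p and miR-20a-5p of the same transcript. MiR-25-3p (5014 and 2550 RPM, −0.98) and miR-363-3p (114 and 58 reads, −0.73) were the 2 of 20 within 2-fold. By locus, all 11 mature miRNAs of the 6 hairpins in exons of the host transcript Mir17hg fell (mm10 chr14:115043671-115044506, plus strand). Of the 6 from the hairpins of miR-25, miR-93 and miR-106b within Mcm7, the gene of a subunit of the replicative helicase (chr5:138165321-138165818, minus strand), 5 fell. Of the 5 from the X chromosome cluster of miR-363, 4 fell, though 2 of these, miR-19b-3p and miR-92a-3p, are also encoded in Mir17hg and their reads cannot be assigned to either copy.

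In further families, members that fell are to be read against the 11.7% of all miRNAs that fell. The miR-15, miR-16, miR-195, miR-497 and miR-322 list, whose members restrain cyclins, had 7 of 13 fall and 0 rise (median −1.03). The falls were led by passenger arms: miR-15b-3p had 603 and 108 reads (−2.23) and miR-16-1-3p 1511 and 318 reads (−2.08), while miR-16-5p, the most abundant member, had 3114 and 2321 RPM (−0.42) and miR-195a-5p 134 and 104 RPM (−0.36). Mir15b and one copy of miR-16 lie in an intron of Smc4, the gene of a condensin subunit. In the X chromosome cluster of miR-322, miR-503, miR-351 and miR-450, 6 of 9 fell and 0 rose (median −1.12), with miR-503-5p lowest (258 and 43 reads, −2.18). MiR-322 belongs to both of these lists. In the miR-130 and miR-301 family, 6 of 8 fell and 0 rose (median −1.48). MiR-301b-5p had 418 and 62 reads (−2.42), miR-301b-3p 385 and 63 (−2.28), and miR-130b-5p, its neighbour and the most abundant of the family, 868 and 288 RPM (−1.59).

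MiR-135a-1-3p had 257 and 31 reads (−2.53), while miR-135a-5p, from the same hairpin and a further copy, had 2473 and 1973 RPM (−0.33). MiR-224-5p, from an intron of the GABA-A receptor subunit gene Gabre, had 1226 and 186 reads (−2.52). MiR-216b-5p was the 1 of 6 members of the miR-216 and miR-217 cluster that fell (187 and 72.6 RPM, −1.35), and the other members lay between −0.81 and −0.53.

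Not every family moved in 1 direction. The counts here are to be read against the 15.3% of all miRNAs that rose and the 11.7% that fell. In the miR-181 family, 3 of 9 fell (miR-181b-2-3p −1.21, miR-181c-3p −1.21 and miR-181b-1-3p −1.04) and 0 rose, all 3 being passenger arms, whereas the abundant guide miR-181a-5p was at 0.47 and miR-181c-5p at 0.56. MiR-181d-5p, with the same seed, was at −0.77. In the miR-125, miR-10, miR-99 and miR-100 list of 12, 1 rose (miR-100-5p, 647 and 1776 RPM, 1.46) and 1 fell (miR-125a-3p, 187 and 68 reads, −1.20). Both counts lay below the shares over all miRNAs. MiR-125b-5p went from 2736 to 5322 RPM (0.96), just inside 2-fold. In the miR-26 family, 0 of 4 was called, with miR-26b-5p at 0.80 and its near-identical relative miR-26a-5p at −0.65. No member was called among the 13 of the miR-30 family (median 0.17, which turned negative with the reduced total), the 5 of miR-7 and the 6 of miR-148 and miR-152, and in the miR-34 and miR-449 family 1 of 6 fell (miR-449a-5p, 938 and 344 reads, −1.29) while miR-34a-5p, with the same seed, was at 0.90. MiR-210-3p, the miRNA induced by hypoxia, had 754 and 434 RPM (−0.80).

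**Figure D4:**
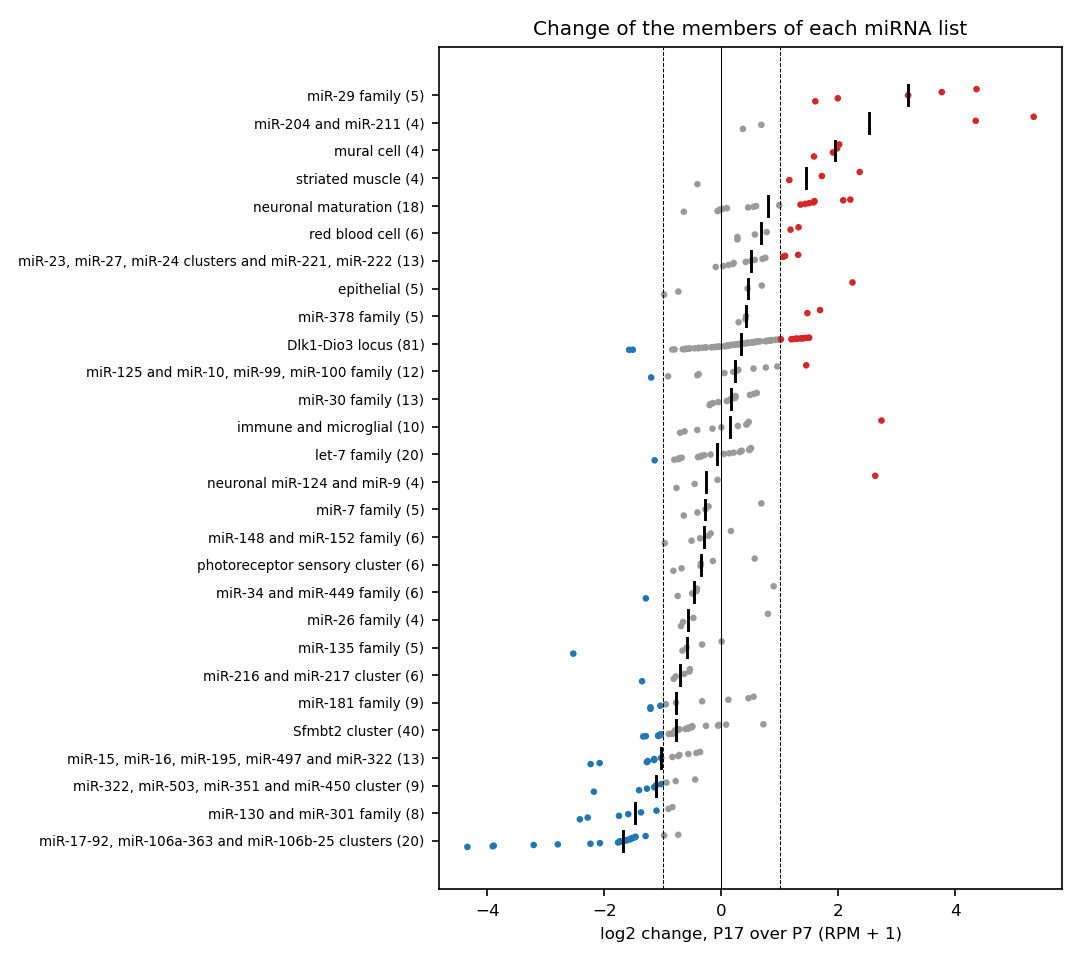
Each point is 1 miRNA past the filter, placed by its log2 change from P7 to P17 (x axis) in its list (y axis, members past the filter in brackets, lists of 4 or more), in red when up-regulated, blue when down-regulated and grey within 2-fold, and the black bar is the list's median. The medians run from −1.68 in the miR-17-92 clusters to 3.20 in the miR-29 family.

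Of the 81 miRNAs of the imprinted Dlk1-Dio3 locus past the filter, 12 rose and 2 fell, a share near the 15.3% and under the 11.7% of all miRNAs, with a median of 0.34. The most abundant, miR-127-3p, had 3985 and 6957 RPM (0.80). The largest of its rises with at least 100 RPM was miR-369-3p (120 and 338 RPM, 1.49), and miR-494-3p (810 and 252 reads, −1.51) and miR-679-5p (123 and 30 reads, −1.58) were the 2 that fell. Of the 40 from the Sfmbt2 cluster, which also is imprinted, 8 fell, against 11.7% of all miRNAs, and 0 rose. In this cluster 38 of the 40 names lay below 0 (median −0.78), against 302 of all 608 miRNAs. Its miR-466, miR-467 and miR-669 copies are nearly identical, several are listed with the same read numbers under different names (miR-467a-5p and miR-467b-5p each with 3906 and 2126 reads), and 6 of the 8 names that fell form 3 such pairs, so the count of names overstates the count of independent members.

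Retinal vessels are still growing at the earlier age, and the vascular markers were higher at P17. MiR-126a-3p, made in endothelial cells, had 45262 reads (3547 RPM) at P7 and 96661 reads (8290 RPM) at P17, a log2 change of 1.22, and miR-126a-5p was at 1.32. Of the mural cell miRNAs of pericytes and smooth muscle, 4 of 4 rose, against 15.3% of all miRNAs (median 1.95). They are both arms of miR-143 and of miR-145a. MiR-143-3p had 363 and 1440 RPM (1.98) and miR-145a-5p 13.1 and 52.0 RPM (1.91). In the list of miR-23, miR-27, miR-24, miR-221 and miR-222, which endothelium uses among other cells, 3 of 13 rose, against 15.3% of all miRNAs: miR-23a-3p (1.32), miR-27a-3p (1.09) and miR-24-1-5p (1.06), of which 1 stayed past 2-fold with the reduced total.

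The summed levels of markers of cells outside the neural retina were also higher at P17, but single markers went both ways. The 4 striated muscle markers summed to 89.97 RPM at P7 and 240 RPM at P17, with miR-1a-3p at 831 and 2533 reads (1.72), miR-133a-3p at 27 and 70 reads (1.17), miR-206-3p at 290 and 197 reads and miR-208a-3p at 0 reads in both libraries. The 4 markers of lens, cornea and surface epithelium summed to 273 and 647 RPM, where the gain of miR-184-3p was larger than that of the sum. MiR-205-5p had 4 and 8 reads, miR-203-3p had 150 and 75.7 RPM and miR-200c-3p 43 and 19 reads. The 3 red blood cell markers summed to 116 and 157 RPM, of which miR-451a (149 and 325 reads, 1.19) and miR-144-3p (15 and 52 reads, 1.32) rose. The most abundant of them, miR-486a-5p, stayed within 2-fold (103 and 125 RPM, 0.28). The 4 leukocyte markers summed to 17.7 and 35.9 RPM. Most of that gain was that of miR-150-5p (23 and 207 reads, 2.74), while miR-142a-5p had 92 and 105 reads, miR-142a-3p 108 and 99 and miR-223-3p 3 and 7. The liver marker miR-122-5p had 29 and 42 reads. The part of muscle and surface epithelium in the rises of miR-499-5p, miR-184-3p and the mural cell miRNAs was not tested. Of the immune and microglial list, 1 of 10 rose, against 15.3% of all miRNAs, and 0 fell, and miR-21a-5p had 5707 and 5148 RPM (−0.15).

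Arms were paired by name, which gave 175 names with both arms past the filter, called hairpins here. Hairpins whose arms carry unlike names, such as those of miR-16 and miR-181a, were left out. A name can stand for several loci, as for miR-9, and several miR-466 names share the same 3p reads. The arm ratio does not depend on the scaling. Both arms rose in 14 hairpins, both fell in 11, exactly 1 arm was called in 40 and neither in 110, and in 0 hairpins were the arms called in opposite directions. The changes of the arms had a Pearson r of 0.744 across hairpins (a description, since the arms share a transcript). The log2 ratio of 5p to 3p reads changed by a median of −0.04, with 5th and 95th percentiles of −1.38 and 1.32, and by more than 1 in 40 hairpins, up in 17 and down in 23. Among hairpins whose ratio changed by more than 1, miR-124 had the most reads in its rarer arm. Its 5p arm had 18881 reads at P7 and 16515 at P17 while its 3p arm had 26219 and 148978, so the log2 ratio changed by −2.70 (−2.74 to −2.66).

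In the miR-17-92 cluster and its relatives the 5p arms of the AAAGUGC hairpins named here and of miR-18a fell more than their 3p arms. MiR-20a-5p fell from 14734 to 653 reads and miR-20a-3p from 140 to 39, a change of the log2 ratio of −2.65 (−3.18 to −2.13). The change was −2.24 for miR-17, −1.96 for miR-93 and −1.70 for miR-18a. The opposite was seen in miR-296, whose 5p arm had 905 and 1059 reads and 3p arm 2484 and 699 (log2 ratio change 2.06, 1.88 to 2.23), so its main arm was 3p at P7 and 5p at P17. The main arm differed between the ages in 13 hairpins in all, among them miR-503, miR-29c and miR-369. In miR-301b, miR-142a, miR-144, miR-669f and miR-1247 of these, the counting interval of the ratio change held both signs. MiR-181c (1.78) and miR-125a (1.60) moved toward 5p without a change of main arm.

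**Figure D5:**
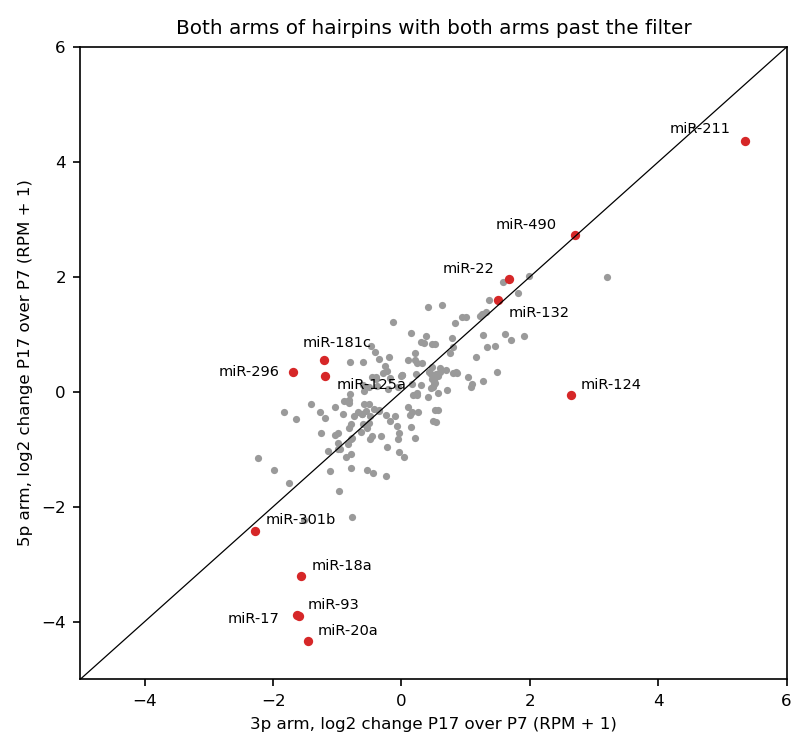
Each point is 1 of 175 hairpins, with arms paired by name. The log2 change of its 3p arm is on the x axis and of its 5p arm on the y axis, and the line marks equal change. MiR-20a, miR-17, miR-93 and miR-18a lie below the line at the lower left, miR-124 lies far below it at 2.64 on the x axis and −0.06 on the y axis, and miR-490 lies on it.

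Seeds were read from the 511 miRNAs past the filter with a RefSeq sequence, so some relatives, such as miR-301b-3p, were left out. Of the 13 seeds held by 3 or more of these, covering 58 miRNAs, 2 had members that rose and none that fell. Another 7 had members that fell and none that rose, 0 had both and 4 had neither. Besides the miR-29 seed, only ACCCGUA of miR-99 and miR-100 had a member that rose. It was 1 of 3 (miR-100-5p), and miR-99b-5p was at −0.38. By place in the mm10 annotation (GENCODE M21), 20 of 165 mature miRNAs from introns of coding genes rose and 16 fell. Between genes, 20 of 158 rose and 20 fell. Within noncoding genes, 22 of 114 rose and 16 fell, and in exons of coding genes 7 of 45 rose and 5 fell. These counts are to be read against the 15.3% that rose and the 11.7% that fell over all miRNAs. The 74 miRNAs with a sequence that rose had a median GC content of 50%, the 60 that fell 47.7% and the 377 within 2-fold 47.8%, with a median length of 22 bases in each.

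The thresholds cut through a continuous range. Just inside the filter lay miR-466h-5p and miR-3083-5p (mean 1 RPM each) and just outside it miR-3103-3p (0.98 RPM) and miR-3076-3p (0.985 RPM). Just past a 2-fold rise lay miR-873a-3p (1.00) and miR-3068-5p (1.01), and just short of it miR-433-5p (0.98) and miR-138-5p (0.99). Just past a 2-fold fall lay miR-340-5p (4462 and 2230 RPM) and miR-322-5p (−1.03), and just short of it miR-671-3p (85.5 and 42.4 RPM) and miR-374c-3p (−0.99). These places hold on log2(RPM + 1). In RPM without the pseudocount, miR-671-3p and miR-138-5p differed by more than 2-fold.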

How the data were processed

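Total RNA of retinas (C57BL/6 per the labels, C57BL/6J per the methods of the study), 5 eyes pooled per age, was made into small RNA libraries with the NEBNext kit and sequenced as 50-nt reads. The authors trimmed adaptors, dropped low-quality reads and aligned to mm10 with HISAT2, while the submitters' processing notes list FastQC and BWA; the annotation and counting rule are not given in the sources used here. The deposited tables hold the raw count of each mature miRNA and its RPM, which the authors divided by the miRNA reads of the same library; RPM recomputed from the counts differed by at most 0.0153. PCR copies cannot be recognised, so intervals cover counting error only.

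The deposited RPM of the P7 and P17 libraries were compared as log2((P17 RPM + 1)/(P7 RPM + 1)) over miRNAs whose mean reached 1 RPM, a call being over 2-fold (scipy 1.17.1 and pandas 2.3.3 under Python 3.11.15). Median-of-ratios size factors were 1.04 and 0.958, and TMM factors came from edgeR 4.0.16. The steps were tested on simulated data. The methods of the study ask for an adjusted p, which needs replicates. Hairpins within 10000 bases formed a cluster. The P1 library was not used here. The members and the lists were chosen with earlier results of these data known. Named were the 12 largest rises and falls among miRNAs of at least 10 RPM, the 10 most abundant of either library, list members of at least 100 RPM (or the most abundant member of a list without one) and the 2 miRNAs beside each threshold; any other miRNA named, and each hairpin and host gene, was chosen after its values were seen. Alternatives varied the scaling, pseudocount, filter, fold and names with equal reads.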

Additional observations from a re-analysis of the deposited data

How the results depend on the processing

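No call of a named miRNA turned its direction under the alternative scalings and pseudocounts. That was no test, since these scalings shifted values by less than a 2-fold change and a pseudocount cannot change a sign. The log2 changes of named miRNAs moved past their counting interval in 310 of 1078 comparisons. With the 10 most abundant miRNAs left out of the total, they did so in 132 of 154. Of the list medians, 34 of 128 moved past a tolerance set from counting error. The median log2 change was −0.0883 with median-of-ratios scaling over all miRNAs, 0.0277 with TMM, −0.163 with the 10 most abundant miRNAs left out of the total, 0.0377 with a filter of 10 RPM and 0.0283 with 1 name for each group of names with equal reads, an alternative chosen after seeing the data. A pseudocount of 5 RPM left 68 up-regulated and 44 down-regulated miRNAs, and no pseudocount gave 110 and 89. A fold of 1.5 gave 151 up-regulated and 164 down-regulated, and a fold of 4 gave 17 and 14. The sign of 19 small changes in 15 named miRNAs, counted per scaling, turned. With the reduced total and with median-of-ratios scaling over all miRNAs, the down-regulated members of the miR-125, miR-10, miR-99 and miR-100 list went from 1 to 2, and those up-regulated in the miR-23, miR-27, miR-24, miR-221 and miR-222 list from 3 to 1. All 93 rises and 71 falls had a counting interval past 1.5-fold. With 1 name per group of equal reads, 93 rose and 68 fell. No paired analysis was possible because P7 and P17 have 1 library each. Depth limits miRNAs below 10 RPM, where the median half-width of the counting interval was 0.74, and the spread between mice was not measured.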

Other observations

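Outside the filter, 130 miRNAs had reads at P7 alone, with at most 16 reads, and 128 had reads at P17 alone, with at most 10 reads. Among miRNAs below a mean of 10 RPM, miR-5119 had 1 read at P7 and 116 at P17, and miR-1968-5p had 17 and 114 reads (log2 change 2.21). In 12 groups, names of 1 family and arm were listed with the same reads in both libraries, 28 names in all, and the names after the first in each group held 0.165% of the reads at P7 and 0.117% at P17. For 2 of these groups, miR-199a-3p with miR-199b-3p and let-7a-1-3p with let-7c-2-3p, the mature sequences in RefSeq are identical.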
